A study of Mus musculus with 4 samples.

Results

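The genes of the mitochondrial ribosome were followed in tumour-associated macrophages of mice given vehicle or imatinib. Members were selected by symbol, as genes named Mrpl or Mrps followed by a digit, and each was read from the brightest of its probe sets that carry 1 gene symbol. This gave 74 of the 12393 genes named on the array, 47 with an Mrpl and 27 with an Mrps symbol. All 74 lay above the filter on low signals. Mrpl30 and Mrpl53 had only a probe set shared with a neighbouring or related gene and were left out.

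The mitochondrial ribosome makes the few proteins that mitochondrial DNA encodes, all of them core subunits of the respiratory chain and ATP synthase. Its RNAs come from mitochondrial DNA, but all of its proteins are encoded in the nucleus, made in the cytosol and imported. The large subunit (Mrpl genes) joins amino acids and releases the new chain through an exit tunnel, and the small subunit (Mrps genes) reads the messenger. Some of these proteins descend from bacterial ribosomal proteins and others were added in mitochondria. Symbols and structure differ in 3 members: Mrps18a and Mrps30 encode proteins of the large subunit, and the product of Mrps36 is now placed in the oxoglutarate dehydrogenase complex. By structure the members were therefore 49 large subunit genes, 24 small subunit genes and Mrps36.

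The macrophages were sorted by flow cytometry from gastrointestinal stromal tumours (GIST), sarcomas of the gut wall usually driven by the receptor kinase Kit. The control group was vehicle-treated, and the other received imatinib, an inhibitor of Kit and related kinases, in drinking water (600 mg/L) for 2 weeks. Cells of 8 mice were pooled in each group, and RNA (200 ng per array) was hybridised to 2 arrays per group, 4 in all. The design text calls them duplicates of a pool and the titles call them biological replicates, so a p-value here reflects only how far arrays of a group differ, which may be technical variation. The strain, tumour allele and age of the mice are not stated in the labels, and both groups carried the tumours.

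The number of arrays limits the precision. Macrophage markers were present and higher with imatinib: of 14 measured, 10 were higher and none lower, with a median log2 difference of 0.41 (limma, 0 lower at an unadjusted p under 0.05). All 13 epithelial markers were lower, with a median of -2.18, and their summed signal was 35532 to 35799 with vehicle against 7111 to 7323 with imatinib. None of the 13 was listed at 0; the lowest signal of any of them was 19.3. Of 8 fibroblast markers 6 were lower and all 8 had negative differences, of 6 GIST and interstitial cell markers 4 were lower (median -0.64), and of 15 genes of dividing cells 4 were lower (median -0.30). Of 7 T cell markers none was called by limma (0 at an unadjusted p under 0.05; median -0.14), of 6 B cell markers 2 were higher (median 0.08), and of 7 endothelial and smooth muscle markers 1 was lower (median -0.03). Gapdh control probe sets gave 3' over 5' ratios of 2.91 and 2.76 with vehicle and 2.34 and 2.09 with imatinib. These differences accompany every comparison below, and their part in the results was not tested. In sorted bulk cells, fewer cells of a type and less RNA per cell cannot be told apart.

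Few mitochondrial ribosomal protein genes differed between the groups. Of the 74 genes, 3 fell with imatinib (4.05%) and 0 rose, by limma at a Benjamini-Hochberg adjusted p under 0.05. Over all 8145 tested genes, 8.73% were called lower and 6.80% higher. At an unadjusted p under 0.05 (limma), 6 of the 74 members were lower and 3 higher. Over all 8145 tested genes these counts were 1255 and 1032. The median log2 difference of the members was -0.03, beside -0.02 over all tested genes, with 42 members below and 32 above 0. Differences are of log2(signal + 32), imatinib minus vehicle, so a value of 1 is a doubling for a bright gene, and changes of dim genes are understated.

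Members varied little among themselves. Their log2 differences had an SD of 0.19, beside 0.45 over all tested genes, and an interquartile range from -0.18 to 0.08, beside -0.23 to 0.16. Only Mrps6 and Mrpl12 differed by more than 0.5, which is 2.70% of the members, beside 14.8% of all tested genes. The median absolute difference between the groups was 0.15. Between the 2 vehicle arrays it was 0.13, and between the 2 imatinib arrays 0.11. Over all tested genes these medians were 0.19, 0.14 and 0.14. The first is a difference of means of 2 arrays and the others of single arrays, so they are not on equal terms. The 95% confidence interval of the difference lay wholly between -0.5 and 0.5 for 45 of the 74 members, and between -1 and 1 for 73, the exception being Mrps6. For the other 29 members the arrays cannot place the difference within 0.5. Both imatinib arrays lay below both vehicle arrays for 26 members (35.1%, beside 29.9% of all tested genes) and above them for 15 (20.3%, beside 26.1%), and the arrays overlapped for 33.

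**Figure D1:**
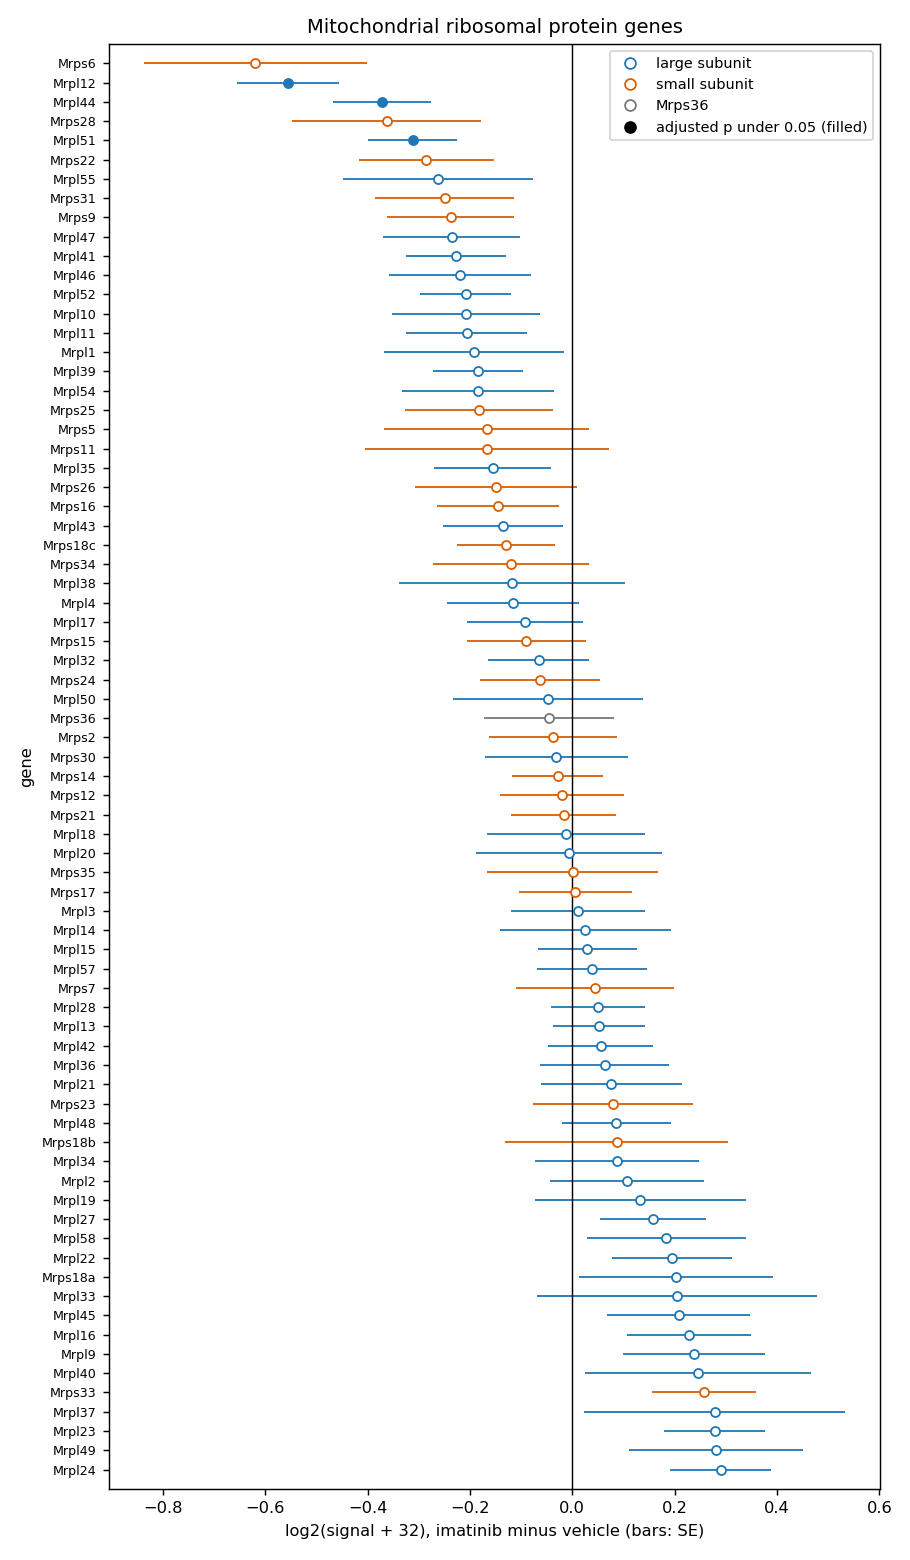
Difference between imatinib and vehicle for each of the 74 members, in log2(signal + 32) on the x axis, with 1 gene per line and bars of 1 SE. Blue points are large subunit genes, orange points small subunit genes and the grey point Mrps36; the 3 filled points, Mrpl12, Mrpl44 and Mrpl51, are the calls at an adjusted p under 0.05. Most points lie close to 0, between -0.62 for Mrps6 and 0.29 for Mrpl24.

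The clearest fall was in Mrpl12. Its product forms the flexible stalk of the large subunit, where translation factors bind, and also binds the mitochondrial RNA polymerase. Its signals were 1362 and 1327 with vehicle and 875 and 935 with imatinib. Both imatinib arrays lay well below both vehicle arrays. The log2 difference was -0.56 ± 0.10 (SE, n = 2 arrays per group), or 0.68-fold, with an adjusted p of 0.0030 by limma.

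Mrpl44, whose product resembles ribonuclease III and sits in the large subunit, had signals of 1413 and 1368 with vehicle and 1081 and 1052 with imatinib. The groups did not overlap, and the spread within each was small. The log2 difference was -0.37 ± 0.10 (SE), 0.77-fold, at an adjusted p of 0.023. Mrpl51, a large subunit protein specific to mitochondria, had signals of 2185 and 2147 with vehicle and 1779 and 1699 with imatinib. Its log2 difference was -0.31 ± 0.09 (SE), 0.81-fold, at an adjusted p of 0.034. With any 1 of the 4 arrays left out, Mrpl44 (adjusted p 0.053 to 0.099) and Mrpl51 (0.077 to 0.14) no longer passed, while Mrpl12 passed each time. Mrpl44 and Mrpl51 also missed the threshold with array medians set equal (adjusted p 0.31 and 0.48), without the mean-variance trend (0.11 and 0.16) and over the mean of all their probe sets (0.098 and 0.81), and Mrpl51 did with the replicate block (0.068).

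A further 6 genes passed only before adjustment for multiple tests, 3 on each side. Mrps6, a small subunit protein with a bacterial homologue, had the largest difference of any member. Its signals were 169 and 166 with vehicle and 96.2 and 99.3 with imatinib. The groups were far apart, but at such dim signals the fit expects a wide spread, and the log2 difference of -0.62 ± 0.22 (SE) had an adjusted p of 0.083. Without the mean-variance trend it passed as lower (limma, adjusted p = 0.029). It also passed when genes were read from the mean of their probe sets (limma, adjusted p = 0.047). Mrps6 has a single probe set, so its own difference was the same there. Only the other genes tested with it changed, 7595 genes in all.

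Mrpl41, a mitochondria-specific protein of the large subunit, had signals of 1332 and 1360 with vehicle and 1197 and 1095 with imatinib (log2 difference -0.23 ± 0.10, SE, adjusted p = 0.16). Mrpl52, also specific to mitochondria, had signals of 4401 and 3852 with vehicle and 3652 and 3469 with imatinib (-0.21 ± 0.09, adjusted p = 0.15). For both genes the imatinib arrays were the lower ones, though in Mrpl52 the vehicle arrays differed from each other by nearly as much as the groups did.

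On the other side, Mrpl24 had signals of 979 and 990.4 with vehicle and 1244 and 1180 with imatinib (log2 difference 0.29 ± 0.10, SE, adjusted p = 0.074). Mrpl23 had signals of 1340 and 1484 with vehicle and 1796 and 1643 with imatinib (0.28 ± 0.10, adjusted p = 0.085). Mrps33, a small subunit protein specific to mitochondria, had signals of 1023 and 967 with vehicle and 1146 and 1245 with imatinib (0.26 ± 0.10, adjusted p = 0.12). In these 3 genes both imatinib arrays were the higher ones. Setting array medians equal brought all 3 past the test as higher, a scale on which 12.9% of all tested genes were higher. All 3 were negative when the mean of the macrophage markers was set equal (-0.17 for Mrpl24, -0.18 for Mrpl23 and -0.20 for Mrps33).

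**Figure D2:**
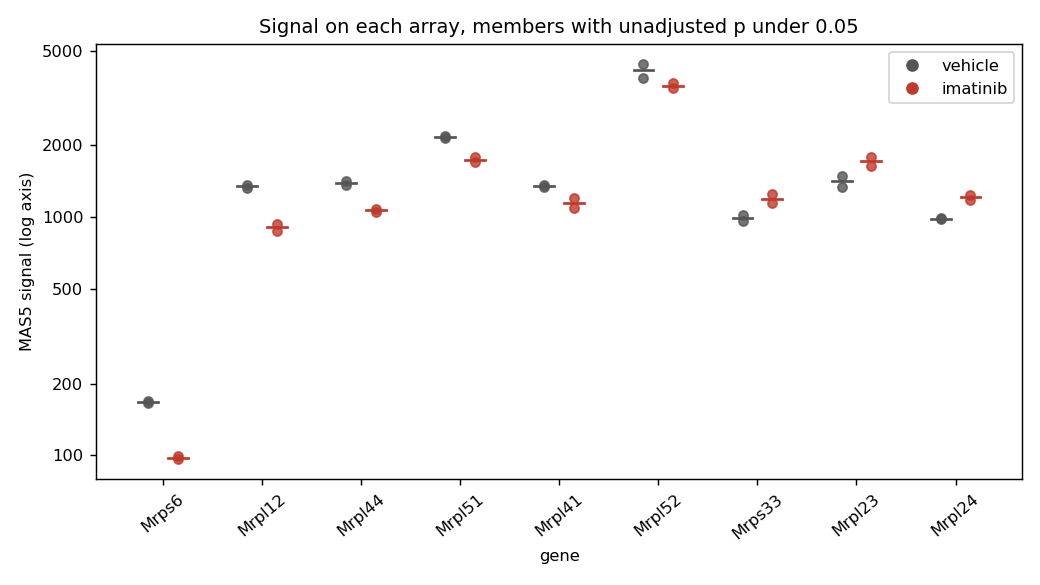
MAS5 signal on each of the 4 arrays, on a log axis, for the 9 members with an unadjusted p under 0.05; points are arrays (grey vehicle, red imatinib) and lines the mean of a group. Both imatinib arrays lie below both vehicle arrays in the 6 genes on the left and above them in the 3 on the right; heights of different genes are not comparable, since each probe set has its own response.

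The upstream sequences of 4 members, 2 called lower and 2 with positive differences, are shown because genes of the mitochondrial ribosome are known to share promoter motifs for NRF1, for ETS factors such as GABP, and for YY1, activators of nuclear genes for mitochondrial proteins. The sequences are from RefSeq on GRCm38.p6, which held a window for 65 of the 74 members, and each runs over the 250 bases before the annotated start, 5′ to 3′ on the strand of the gene. Capitals mark matches, on either strand, to the NRF1 motif (GCGCA, any base, GCGC), to CCGGAAG (ETS) or AAGATGGC (YY1). The first pair belongs to the most reduced of the called genes, Mrpl12 (chr11:120484387-120484636, plus strand) and Mrpl44 (chr1:79775768-79776017, plus strand). The second pair belongs to the genes with the most positive log2 differences, Mrpl24 (chr3:87919294-87919543, plus strand) and Mrpl49 (chr19:6057756-6058005, minus strand), neither of which passed the test.
Mrpl12: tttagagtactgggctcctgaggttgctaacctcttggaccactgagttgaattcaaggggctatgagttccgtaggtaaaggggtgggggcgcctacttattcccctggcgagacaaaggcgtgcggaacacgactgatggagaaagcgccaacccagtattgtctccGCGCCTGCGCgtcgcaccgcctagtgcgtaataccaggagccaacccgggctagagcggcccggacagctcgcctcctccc
Mrpl44: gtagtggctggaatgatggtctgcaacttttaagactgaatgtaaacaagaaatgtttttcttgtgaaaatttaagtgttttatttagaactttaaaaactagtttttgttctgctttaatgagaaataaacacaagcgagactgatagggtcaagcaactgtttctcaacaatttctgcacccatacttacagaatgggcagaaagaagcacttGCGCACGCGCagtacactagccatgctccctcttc
Mrpl24: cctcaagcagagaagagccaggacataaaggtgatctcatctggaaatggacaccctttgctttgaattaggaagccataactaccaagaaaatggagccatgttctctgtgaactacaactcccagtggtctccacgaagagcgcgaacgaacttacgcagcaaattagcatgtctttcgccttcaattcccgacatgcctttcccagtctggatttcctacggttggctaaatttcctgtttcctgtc
Mrpl49: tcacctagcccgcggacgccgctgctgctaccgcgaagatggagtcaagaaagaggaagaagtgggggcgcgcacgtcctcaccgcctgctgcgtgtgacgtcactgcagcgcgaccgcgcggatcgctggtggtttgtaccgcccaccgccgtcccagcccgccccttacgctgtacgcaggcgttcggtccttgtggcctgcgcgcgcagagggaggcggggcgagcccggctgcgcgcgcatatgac

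Mrps6, whose difference was the most negative but did not pass the test, held none of the 3 motifs. Mrpl12 and Mrpl44 each held an NRF1 motif, which began 81 bases before the start in Mrpl12 and 35 bases before it in Mrpl44. The windows of Mrpl24 and Mrpl49 held none of the 3 motifs in the 250 bases printed, and Mrpl49 had a YY1 motif 17 bases after the start. Mrpl51, the third called gene, held an ETS motif and no NRF1 motif. Among the 65 members matched, 12 held an NRF1 motif in a window of 300 bases (250 before to 50 after the start), 24 an ETS motif and 11 a YY1 motif, and 40 held at least 1 of these. By window, an NRF1 motif was in 16.9% of the 71 member windows and 4.59% of all 32817 promoter windows. An ETS motif was in 33.8% and 8.86%, and a YY1 motif in 15.5% and 2.74%. The E-box CACGTG was in 9.86% and 7.15%, and the GC box GGGCGG in 54.9% and 35.6%. Counted by gene against the 6611 tested genes with a window, at least 1 of the NRF1, ETS and YY1 motifs was in 61.5% of members and 33.7% of tested genes. By the same count an NRF1 motif was in 18.5% and 12.1%, an ETS motif in 36.9% and 21.0%, and a YY1 motif in 16.9% and 5.61%. For the E-box (7.69% and 12.04%) and the GC box (52.3% and 69.2%) the order turned, with the lower share in the members. No motif in this set contains another. The median log2 difference was -0.08 for the 12 members with an NRF1 motif and -0.02 for the other 53, 0.02 for the 24 with an ETS motif and -0.05 for the other 41, and 0.04 for the 11 with a YY1 motif and -0.03 for the other 54. A match is a description of the letters and not of binding.

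The members were next divided by subunit and origin. Of the 49 large subunit genes, 3 fell and none rose (limma, 2 higher and 5 lower at an unadjusted p under 0.05), with a median log2 difference of 0.03. Of the 24 small subunit genes none passed the test (1 higher and 1 lower at an unadjusted p under 0.05), with a median of -0.10 and 18 of 24 below 0. Both imatinib arrays lay below both vehicle arrays in 9 of the 24 small subunit genes and above them in 2, against 17 and 13 of the 49 large subunit genes. Over all tested genes these shares were 29.9% and 26.1%, and 4299 of 8145 genes had differences below 0. Large subunit genes with a bacterial homologue had a median of 0.04 (n = 30, 1 lower) and those specific to mitochondria -0.05 (n = 19, 2 lower). Small subunit genes with a bacterial homologue had a median of -0.08 (n = 16) and those specific to mitochondria -0.13 (n = 8). With array medians set equal each of these medians is larger by 0.16 and all are above 0. The difference between the subunits was not tested.

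Some members can be placed at known sites of the ribosome; these groupings were made after the values were seen. The stalks of the large subunit, where factors and leaving tRNAs bind, hold the products of Mrpl1, Mrpl10, Mrpl11 and Mrpl12. Besides Mrpl12, log2 differences were -0.19 ± 0.18 for Mrpl1, -0.21 ± 0.15 for Mrpl10 and -0.21 ± 0.12 for Mrpl11 (SE), none past the test. Mrpl11 had signals of 1306 and 1661 with vehicle and 1279 and 1266 with imatinib, so that the vehicle arrays lay further apart than the groups did. Other probe sets above the filter gave smaller differences for Mrpl11, -0.03 ± 0.12 and -0.11 ± 0.19 (SE). For Mrpl1 the other such probe set gave -0.21 ± 0.21. Around the exit tunnel lie the products of Mrpl17, Mrpl22, Mrpl23, Mrpl24 and Mrpl47, and that of Mrpl45, which anchors the ribosome to the inner membrane. Mrpl22 had a log2 difference of 0.20 ± 0.12 and Mrpl45 of 0.21 ± 0.14 (SE), none past the test, beside 0.28 for Mrpl23 and 0.29 for Mrpl24. Mrpl17 (-0.09 ± 0.11) and Mrpl47 (-0.24 ± 0.13) lay on the other side of 0, so the genes of this site did not share a direction. The differences of Mrpl22, Mrpl23, Mrpl24 and Mrpl45 were negative on the macrophage-marker scale. Mrps12, whose product helps to read the codon in the small subunit, had a log2 difference of -0.02 ± 0.12, and Mrpl58, a peptidyl-tRNA hydrolase that frees stalled chains, one of 0.18 ± 0.16.

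The 3 Mrps18 genes encode paralogous proteins. Mrps18a, in the large subunit, had signals of 264 and 362 with vehicle and 419 and 311 with imatinib. Mrps18b had 168 and 250.4 with vehicle and 254 and 191 with imatinib. In both the groups overlapped, and the log2 differences were 0.20 ± 0.19 and 0.09 ± 0.22 (SE). Mrps18c had 1392 and 1307 with vehicle and 1240 and 1220 with imatinib, without overlap, and a log2 difference of -0.13 ± 0.10 (adjusted p = 0.42). None of the 3 passed the test.

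The brightest probe sets among the members were those of Mrpl52, given above, Mrpl39 and Mrpl51. Mrpl39, a mitochondria-specific protein of the large subunit, had signals of 3098 on both vehicle arrays and 2892 and 2564 with imatinib (log2 difference -0.18 ± 0.09, SE, adjusted p = 0.20). The dimmest were those of Mrps11, Mrps6 and Mrpl37. Mrps11 had signals of 117 and 131 with vehicle and 122 and 93.0 with imatinib (-0.17 ± 0.24). Mrpl37 had 94.7 and 174 with vehicle and 161 and 167 with imatinib (0.28 ± 0.26), a difference that rested on the lower vehicle array.

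In some other members single arrays stood apart. Mrps28, of the small subunit, had signals of 433 and 421 with vehicle and 403 and 261 with imatinib (log2 difference -0.36 ± 0.19, SE, adjusted p = 0.23), and passed as lower without the first imatinib array and on the macrophage-marker scale, on which 55 members did. Mrpl40 showed the widest spread between vehicle arrays, 281 against 517, a 1.84-fold gap, and passed as higher without the second of them; its imatinib signals were 487 and 434. Mrpl33 showed the widest spread between imatinib arrays, 466 against 240.4, a 1.94-fold gap, with 226 and 364 on the vehicle arrays. The log2 difference of Mrps36, which is no ribosomal gene by structure, was -0.05 ± 0.13.

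Several genes were measured by more than 1 probe set. In all 127 probe sets carried the symbol of a single member, 109 of them above the filter, and tested one by one 3 were lower and none higher, the same probe sets that stood for Mrpl12, Mrpl44 and Mrpl51. In 25 members at least 2 probe sets passed the filter, and their signs were alike in 15 and opposite in 10 (Mrpl3, Mrpl13, Mrpl15, Mrpl28, Mrpl38, Mrpl48, Mrpl49, Mrpl51, Mrps9 and Mrps14). For Mrpl44 the other 2 probe sets also had negative differences, -0.35 and -0.17. For Mrpl51 a dim second probe set had a difference of 0.22 ± 0.22 (SE), and Mrpl12 had 1 probe set only. For Mrps14 the brightest probe set had a difference of -0.03 ± 0.09, and a second had signals of 799 and 801 with vehicle against 934 and 1137 with imatinib, a difference of 0.35 ± 0.12 (adjusted p = 0.083). Mrpl49 had 0.28 ± 0.17 with one probe set and -0.40 ± 0.19 with the other. Mrpl13 had 0.05 ± 0.09 with its brightest probe set and -0.29 and -0.22 with the others. The probe sets shared with other genes had differences of 0.11 for Mrpl30, 0.11 for Mrpl53 and -0.10 for Mrps34.

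Genes that act with the mitochondrial ribosome were read from 7 lists, of whose 132 entries 88 were tested. Of these 88 genes 4 fell and 1 rose, beside 8.73% lower and 6.80% higher over all tested genes. Among 4 subunits with other names none was called by limma (1 higher and 1 lower at an unadjusted p under 0.05; median log2 difference -0.15). Ptcd3, a small subunit protein that binds RNA, had signals of 347 and 270.2 with vehicle and 208 and 179.5 with imatinib (-0.59 ± 0.18, SE, adjusted p = 0.054). The small subunit genes Chchd1 (0.28 ± 0.12) and Dap3 (-0.21 ± 0.14), the brightest of this list, did not pass either. Of 8 translation factors none passed (0 at an unadjusted p under 0.05; median -0.13), with -0.18 ± 0.12 for Slirp, an RNA-binding partner of Lrpprc, and -0.19 ± 0.12 for the initiation factor gene Mtif2. Of 20 genes for ribosome assembly and rRNA modification, 1 fell (limma, 4 lower and 0 higher at an unadjusted p under 0.05; median -0.15). The gene called was Trub2, a pseudouridine synthase, with signals of 427 and 477 with vehicle and 312 and 305 with imatinib (-0.51 ± 0.14, adjusted p = 0.034). It no longer passed with any 1 array left out (adjusted p 0.054 to 0.14), nor with array medians set equal (0.14).

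Of 9 mitochondrial aminoacyl-tRNA synthetase and related genes, which charge tRNAs, none passed (2 lower and 0 higher at an unadjusted p under 0.05; median -0.15). Qrsl1, which amidates tRNA-bound glutamate, had -0.29 ± 0.16 and the arginyl-tRNA synthetase gene Rars2 -0.14 ± 0.14. Of 9 genes for mitochondrial DNA maintenance and transcription none passed (1 lower and 0 higher at an unadjusted p under 0.05; median -0.09). Ssbp1, which coats single-stranded mitochondrial DNA, had -0.23 ± 0.10, and Tfam, which packages mitochondrial DNA and starts its transcription, had -0.04 ± 0.13. Polrmt, the RNA polymerase to which the Mrpl12 product binds, had signals of 537 and 467 with vehicle and 347 and 383 with imatinib (-0.43 ± 0.14, adjusted p = 0.065).

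Of 27 genes for mitochondrial import and chaperones 3 fell and none rose (5 lower and 0 higher at an unadjusted p under 0.05; median -0.14). Hspa9, the chaperone that pulls proteins into the matrix, had signals of 1403 and 1517 with vehicle and 963 and 1079 with imatinib (log2 difference -0.50 ± 0.10, SE). Timm44, which tethers Hspa9 to the import channel, had -0.42 ± 0.10, and Timm10, a carrier in the intermembrane space, -0.42 ± 0.11. Hspa9 passed without each array in turn except the first imatinib array (adjusted p = 0.053), Timm44 except without the first imatinib or the second vehicle array (0.078 each), and Timm10 did not pass without any 1 array (0.072 to 0.10). With array medians set equal none of the 3 passed (adjusted p 0.091, 0.20 and 0.22), nor did they without the mean-variance trend (0.073, 0.095 and 0.079). Among 11 regulators of nuclear genes for mitochondrial proteins, Max, the partner of Myc, was higher (signals 393 and 357 against 681 and 505, 0.61 ± 0.16), with a list median of -0.14. At an unadjusted p under 0.05, 3 of the 11 were higher (Max, Myc and Yy1) and 3 lower. The lower ones were the coactivator genes Ppargc1a (-0.51 ± 0.21) and Ppargc1b (-0.46 ± 0.17) and the nuclear receptor gene Esrra (-0.38 ± 0.15), none past the adjusted threshold, and Myc had 0.38 ± 0.12 (adjusted p = 0.061). Without the first imatinib array Max had 0.40 (adjusted p = 0.22), and without the second vehicle array 0.54 (adjusted p = 0.075). For the factors whose motifs were searched, log2 differences were -0.19 ± 0.22 for Nrf1, 0.14 ± 0.12 for Gabpa and 0.21 ± 0.08 for Yy1, none past the test. The positive differences of Myc, Gabpa and Yy1 turned negative on the macrophage-marker scale.

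**Figure D3:**
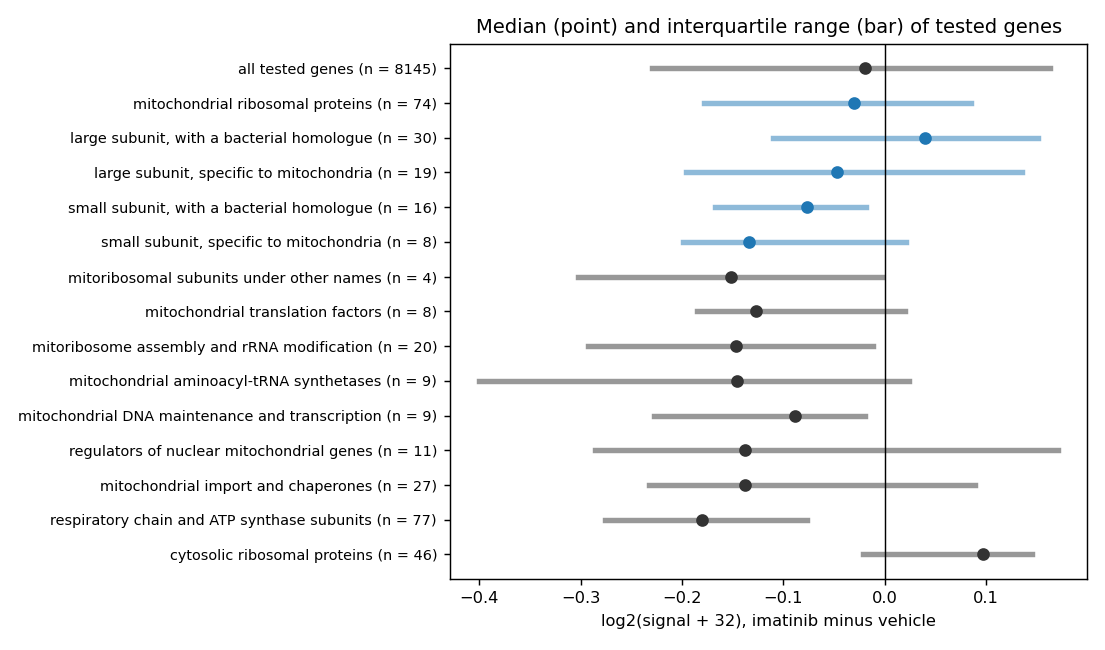
Median (point) and interquartile range (bar) of log2 differences, imatinib minus vehicle, for all tested genes, the members and their structural classes (blue) and related gene lists (black), with the number of tested genes. The members have a median of -0.03, the respiratory chain list -0.18 and the cytosolic ribosomal proteins 0.10.

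The nearest related gene sets are shown for comparison. Over all 8145 tested genes 8.73% were called lower and 6.80% higher. At an unadjusted p under 0.05 (limma) 1255 of the 8145 were lower and 1032 higher. Of 77 subunits of the respiratory chain and ATP synthase, the complexes that receive the products of mitochondrial translation, 14 were lower and 0 higher (limma, 34 lower and 1 higher at an unadjusted p under 0.05), with a median of -0.18 and 64 of 77 below 0. Of 46 cytosolic ribosomal protein genes, 3 were higher and 1 lower (limma, 9 higher and 3 lower at an unadjusted p under 0.05), with a median of 0.10 and 32 of 46 above 0. Both sets stand beside the median of -0.03 of the mitochondrial ribosomal protein genes as values on the same arrays, and the differences between sets were not tested.

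The scale of the arrays sets the sign of the family's median. With array medians set equal, the shift is 0.16 for every gene: the members' median became 0.13 beside 0.14 over all tested genes, and Mrpl12 was the only member lower while Mrpl23, Mrpl24 and Mrps33 were higher. Over all tested genes 6.04% were lower and 12.9% higher on that scale. With the mean of the macrophage markers set equal, every gene shifts by -0.46: the members' median became -0.49 beside -0.48 over all tested genes, and 55 members were lower, beside 64.2% of all tested genes. Both scalings move all genes by 1 constant, so the members' median relative to that of all tested genes is -0.01 under them by construction. Over all 18 alternatives, these included, it lay between -0.04 and 0.02. Mrpl12 was lower under all 18, with log2 differences from -1.02 to -0.39 and adjusted p from 3.1e-06 to 0.047 (limma). The 18 are not independent. The difference of Mrpl12 stayed at -0.56 by construction where only the filter, probe set rule, variance model or block changed.

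**Figure D4:**
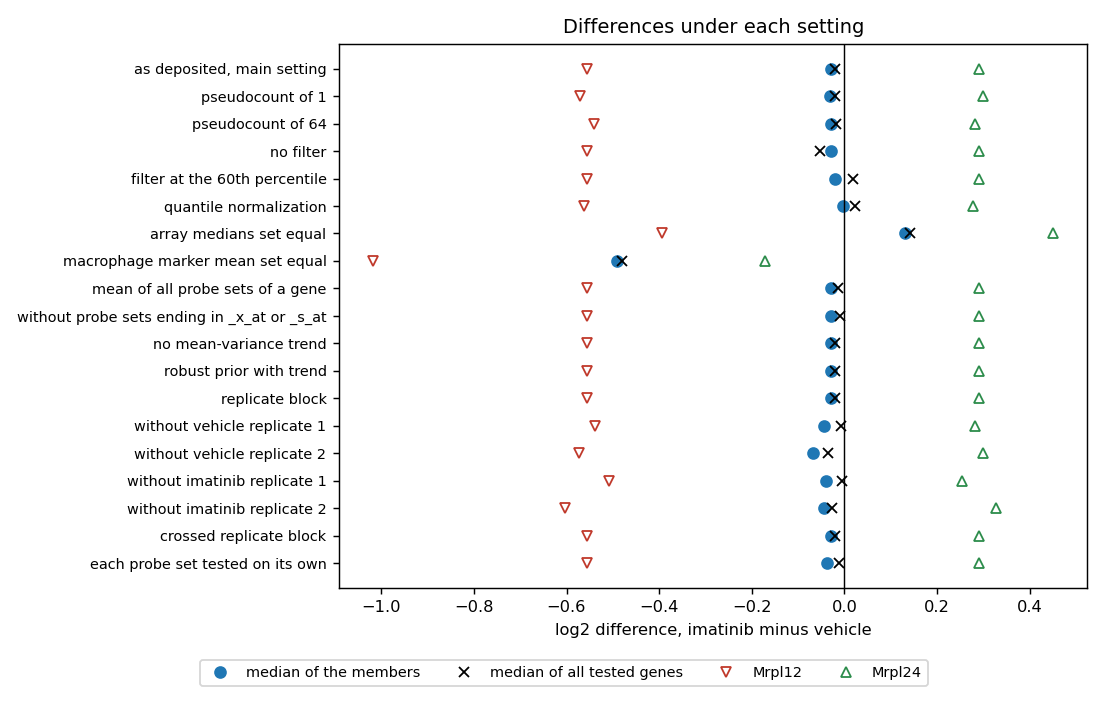
Log2 difference, imatinib minus vehicle, under the main setting and 18 alternatives, for the median of the members (blue), the median of all tested genes (crosses), Mrpl12 and Mrpl24. Setting array medians or the macrophage marker mean equal moves every gene by 1 constant, so the blue points and crosses move together, to 0.13 and 0.14 with array medians set equal and to -0.49 and -0.48 with the macrophage marker mean set equal, and Mrpl12 stays below 0 throughout.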

How the data were processed

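Each of 4 arrays measured RNA of sorted macrophages. The values the authors deposited are linear probe set intensities from MAS5, with Affymetrix Expression Console named in the submitters' processing notes. Its version and settings were not stated there. MAS5 subtracts background and scales every array to a common trimmed mean (500.3 on each after trimming 2%), so that abundant transcripts can shift all others. Of 22690 probe sets, 64 controls were left out; 20380 carried 1 symbol, 691 several and 1555 none, in GEO's platform annotation. All 74 members matched by gene ID to the same symbol in RefSeq (GRCm38.p6).

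Signals were taken as log2(signal + 32). Genes whose brightest probe set reached the 40th percentile of mean log2 signal (about 79.8) were tested with limma (lmFit and eBayes, trend on, two-sided tests; prior 8.71 and residual 2 degrees of freedom), with Benjamini-Hochberg adjustment over 8145 genes and a threshold of 0.05. The procedure was tested on simulated data. Members and lists were chosen with earlier results of these data known. Genes were named if called, if past an unadjusted p of 0.05, if among the 3 brightest or dimmest members, if their probe sets disagreed, if Mrps18 paralogues, or, in other lists, as up to 4 called or the 2 brightest genes; Ptcd3, Polrmt, Myc, Ppargc1a, Ppargc1b, Esrra, Nrf1, Gabpa, Yy1, Mrps28, Mrpl33, Mrpl40, Mrps36 and the genes grouped by site were added after their values were seen. Of the cell type markers only list counts and medians are given, and for the epithelial list also the summed signals and the lowest signal. Alternatives were other pseudocounts (1, 64), no filter or the 60th percentile, 3 other scalings, other probe set rules, other variance models, a block on replicate number and leaving out single arrays. R 4.3.3, limma 3.58.1, Python 3.11.15, pandas 2.3.3 and matplotlib 3.10.9 were used.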

Additional observations from a re-analysis of the deposited data

How the results depend on the processing

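With 2 arrays per group, and dim signals noisy after background subtraction, differences of the size seen in most members could not be told from the spread between arrays. The 3 lower members remained under both other pseudocounts, no filter, the 60th percentile filter, quantile normalization, without probe sets ending in _x_at or _s_at and with a robust prior. No member was higher and 2 were lower over the mean of all probe sets and without the trend (Mrpl12 and Mrps6 each time). Both genes have a single probe set, so averaging left their own differences as they were. With array medians set equal, 3 members were higher and 1 lower, beside 12.9% and 6.04% of all tested genes, with a members' median of 0.13. With the macrophage marker mean set equal, 55 were lower (median -0.49). Leaving out 1 array gave 0 to 1 members higher and 1 to 2 lower, and a median of -0.07 to -0.04. Over all tested genes, against 554 higher and 711 lower, 356 were higher without the filter, 1050 with array medians set equal, 111 and 5233 lower with the marker mean set equal, 199 higher without the trend, and 291 to 476 higher and 506 to 664 lower with 1 array left out. The share of calls that were higher was 43.8%, 68.1% with medians set equal, 2.08% with the marker mean set equal and 27.8% without the trend.

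Deviations of same-numbered arrays had a weak negative correlation across genes (r = -0.13, n = 8145 genes, which are not independent), so the numbers do not show a pairing. With the replicate block 0 members were higher and 2 lower (Mrpl12 and Mrpl44), and 430 and 635 of all genes. A crossed replicate block, chosen after seeing the data, gave 2 members higher and 5 lower, and 875 and 1087 of all genes; testing each probe set on its own, also added then, gave 0 and 3.

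Among 46 of the genes given with values, the sign turned 42 times over all alternatives. Other named genes, such as Myc and Mrpl17, were not part of this count. On the macrophage-marker scale these were Mrps33 (-0.20), Mrpl23 (-0.18), Mrpl24 (-0.17), Mrpl37 (-0.18), Mrps18a (-0.26), Mrps18b (-0.37), Mrpl49 (-0.18), Chchd1 (-0.18), Gabpa (-0.33), Yy1 (-0.25), Mrpl22 (-0.27), Mrpl45 (-0.25), Mrpl58 (-0.28), Mrpl40 (-0.22), Mrpl33 (-0.26) and Mrpl13 (-0.41). With array medians set equal they were Mrps18c (0.031), Mrps14 (0.13), Rars2 (0.025), Tfam (0.12), Mrps12 (0.14) and Mrps36 (0.12). Over the mean of all probe sets they were Mrpl52 (0.035), Mrpl49 (-0.062), Mrps14 (0.16), Ssbp1 (0.0018) and Mrpl13 (-0.15). That mean includes probe sets below the filter. For Mrpl52 it took in a probe set with signals of 1.72 to 17.1 and a difference of 0.48. The probe sets of Mrpl52 above the filter had -0.21, -0.11 and -0.01. With 1 array left out the range was, for Mrpl37 (-0.071 to 0.63), Mrps18a (-0.0021 to 0.41), Mrps18b (-0.16 to 0.33), Tfam (-0.21 to 0.13), Nrf1 (-0.41 to 0.021), Mrps12 (-0.15 to 0.11), Mrpl58 (-0.040 to 0.41), Mrpl40 (-0.16 to 0.65), Mrpl33 (-0.23 to 0.64) and Mrps36 (-0.16 to 0.066). Setting array medians or the macrophage marker mean equal shifts every gene alike, while quantile normalization does not. Causes of the other turns were not tested.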
